A study of Homo sapiens with 3 samples.

Results

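The lysosome is the acidic compartment in which cells digest proteins, lipids and carbohydrates, and 51 genes of this compartment, of its proton pump and of autophagy are described here, of 61193 genes measured in all and 19926 protein-coding genes. The members were given as a list of symbols, chosen by role with no threshold on their levels, although earlier results of these data were known. They comprise 13 hydrolases and cofactors, 3 membrane proteins, 3 channels, 2 transcription factors, 15 subunits and accessory proteins of the vacuolar H+-ATPase (V-ATPase) and 15 autophagy genes. The RNA came from HEK293T, an established line from human embryonic kidney into which the large T antigen of SV40 was introduced, in 3 replicates of 1 untreated condition, collected 24 h after seeding. No condition was compared with another, and no test between groups was possible.

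Hydrolases are made in the secretory pathway and work only at the low pH that the V-ATPase maintains. In this pump the cytosolic V1 sector hydrolyses ATP and the membrane-embedded V0 sector carries the protons, so that both sectors are needed for acidification. Autophagy delivers cytoplasm to the lysosome, starting with the ULK1 kinase complex and a lipid kinase complex, and continuing with a ubiquitin-like conjugation that attaches proteins of the ATG8 family to the growing membrane. TFEB and TFE3 are transcription factors that bind E-box sequences in the promoters of many of these genes.

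The libraries were made from poly(A)-primed fragments, so reads come from the 3′ end of each transcript, and they held between 6262175 and 8521624 counts on transcripts. A count of 0 allows up to 3 counts, which is between 0.352 and 0.479 counts per 1000000 and covers counting error only. Counts had been assigned per transcript and were summed here per gene. Levels are given in TPM, the count divided by the transcript length and scaled to 1000000 per library. The mitochondrial genome held 22.8% of TPM in replicate 1, 15.4% in replicate 2 and 44.2% in replicate 3, which lowers the TPM of other genes in replicate 3. Of 7 genes known from HEK293T, NES, KRT8 and PAX2 had a mean of at least 1 TPM, VIM had 0, 6 and 5 counts, and NEFL, NEFM and KRT18 were listed at 0. Of 11 markers of lineages rich in specialised lysosomes or foreign to the line, 10 had at most 3 counts in every replicate. MLANA had 3, 8 and 4 counts. At most 3 counts in every replicate were also found for 50.9% of protein-coding genes, so these markers do not test the identity of the line.

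The members spanned the whole range of detection. Genes with a mean TPM of at least 1 were taken as expressed, and this held for 27 of the 51 members, against 38.2% of protein-coding genes. By the quartiles of all expressed genes, at 2.399 and 24.1 TPM, 11 members were in the high category (12.5% of protein-coding genes), 10 in the medium and 6 in the low one. Of the other 24 members, 12 had no count in any replicate, compared with 36.5% of protein-coding genes. In all, 16 members had at most 3 counts in every replicate, compared with 50.9% of protein-coding genes. The median member had 1.54 TPM and a mean of 11 counts, and the median protein-coding gene 0.195 TPM and 1.67 counts. The category was the same in every replicate for 39 members, against 85.2% of protein-coding genes. Together the members held 0.235% ± 0.0463 (SD, n = 3) of all TPM.

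**Figure D1:**
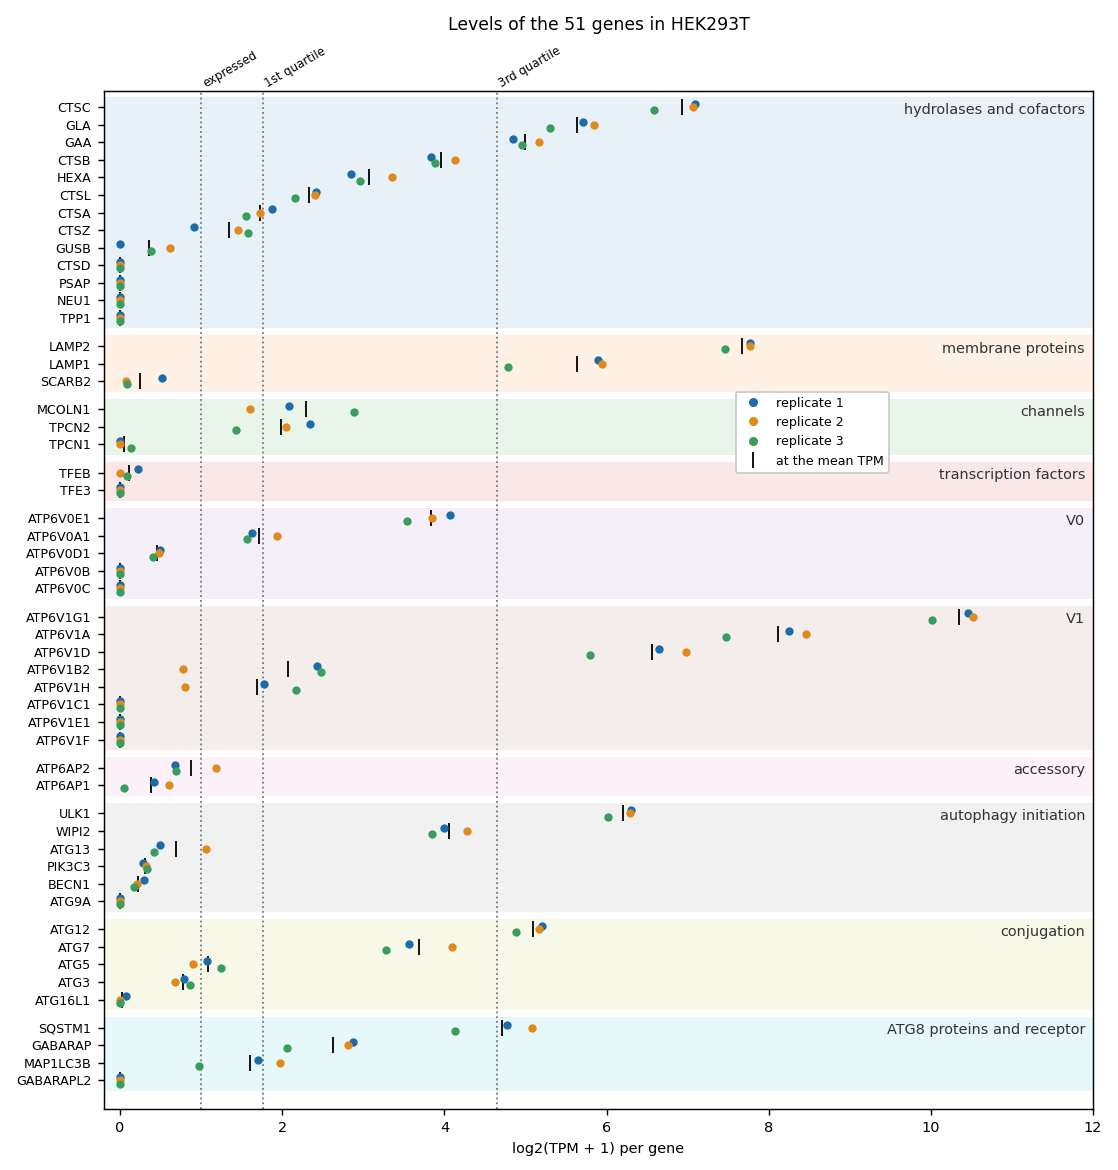
Level of each of the 51 members as log2(TPM + 1), in rows grouped by role. Points are the 3 replicates, black ticks stand at the mean TPM, and dotted lines mark 1 TPM and the quartiles of the expressed genes at 2.399 and 24.1 TPM. ATP6V1G1 lies farthest right in every replicate, and 12 members lie at 0 in all of them.

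A few members held most of this. ATP6V1G1 alone made up 55.5% ± 1.11 (SD, n = 3) of the members' summed TPM, and ATP6V1A 11.5% ± 1.72. LAMP2 followed with 8.73% ± 0.774 and CTSC with 5.16% ± 0.200. These shares depend on the division by length. Of the members' counts, ATP6V1G1 held 39.3%, ATP6V1A 23.7% and LAMP2 12.8%, and ULK1 with 7.61% came before CTSC with 4.55%. By role, the 8 subunits of V1 held 71.1% ± 1.26, the 3 membrane proteins 10.7% ± 0.395 and the 13 hydrolases and cofactors 9.89% ± 0.544. The 5 subunits of V0 held 0.682% ± 0.0570 of the members' TPM. Of the counts, V1 held 64.8% and the membrane proteins 15.2%, and the autophagy initiation genes (8.998%) came before the hydrolases (7.61%).

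The promoters of the members are shown first, because E-boxes close to the start are known from many genes that TFEB regulates. The 300 bases from -250 to +50 around the annotated start were available for 42 members (RefSeq, GRCh38.p14). The 9 others were ATP6V0E1, ATP6V1A, ATP6V1B2, ATP6V1C1, ATP6V1H, CTSB, HEXA, LAMP2 and PSAP. The E-box was searched as CACGTG, which reads the same on both strands. It was present in 10 of the 42 members, namely ATG3, ATP6V0B, ATP6V0D1, ATP6V1G1, CTSA, CTSD, GAA, LAMP1, MCOLN1 and NEU1. It was also present in 10.9% of the 15334 protein-coding genes with a listed promoter and in 7.26% of all 35116 promoters of this length. At least 2 boxes were found in 6 members and in 1.12% of the protein-coding genes. The longer palindrome GTCACGTGAC, which contains the E-box, occurred in ATP6V1G1, GAA and MCOLN1, and in 0.665% of the protein-coding genes. A match describes letters and is not a binding site.

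The stretches that hold these boxes are shown for the 5 E-box members with the highest mean TPM, since they span the range from the most abundant member to one with few counts. Capitals mark the E-box.
ATP6V1G1 at chr9:114587701-114587726, plus strand: gctgtgcggtCACGTGacaacggggg
LAMP1 at chr13:113297037-113297226, plus strand: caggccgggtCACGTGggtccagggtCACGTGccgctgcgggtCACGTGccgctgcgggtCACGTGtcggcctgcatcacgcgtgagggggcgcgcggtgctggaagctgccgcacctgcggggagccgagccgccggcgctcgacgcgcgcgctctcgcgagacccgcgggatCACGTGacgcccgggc
GAA at chr17:80101495-80101565, plus strand: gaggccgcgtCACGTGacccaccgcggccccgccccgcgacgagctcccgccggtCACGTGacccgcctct
MCOLN1 at chr19:7522573-7522623, plus strand: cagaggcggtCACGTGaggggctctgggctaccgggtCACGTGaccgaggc
CTSA at chr20:45891283-45891325, plus strand: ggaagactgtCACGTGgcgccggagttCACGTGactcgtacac

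LAMP1 had 6 boxes, and it was the only 1 of the 15334 protein-coding genes with at least 6. Their first bases lie at -192, -176, -159, -142, -28 and -1 from the annotated start, so that 5 of them are in the stretch shown and the last spans the start. Among the 20 boxes of the members, 14 began within 100 bases upstream of the start (70%), compared with 48.5% of the 1542 boxes in the first listed promoter of protein-coding genes. The roles were covered unevenly, since the 10 members were 4 hydrolases, 2 subunits of V0 and 1 each of V1, the membrane proteins, the channels and the conjugation genes. Members with an E-box ranged from 0 to 9848 mean counts with a median of 13.5, and the 32 members without one from 0 to 1905 with a median of 6. The box was thus present at both ends of the range of counts.

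**Figure D2:**
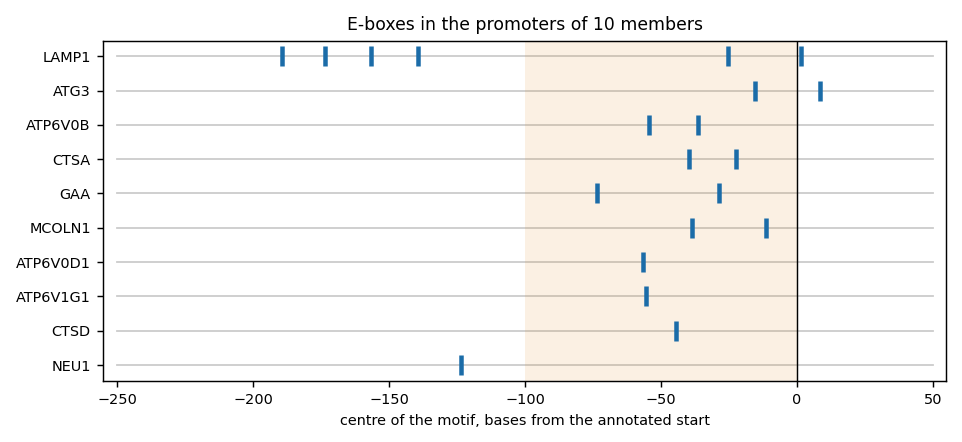
Position of the E-box in the promoters of the 10 members that hold it, in bases from the annotated start (vertical line). Each bar is 1 box, grey lines are the promoter window, and the shaded area is the 100 bases upstream of the start. LAMP1 has 6 boxes, and 14 of the 20 boxes began in the shaded area.

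Putative i-motif sequences were searched in the same promoters, since the study concerns this C-rich DNA fold, as 4 tracts of at least 3 Cs with loops of 0 to 7 bases on either strand. They were present in 15 of the 42 members, compared with 38.9% of the 15334 protein-coding genes, so that the members' share (35.7%) was near the background. Both transcription factors and 2 of the 3 channels were among the 15. ULK1, the most abundant of them, and TPCN1 and SQSTM1 are shown as examples of a long and of shorter runs, with the C-tracts in capitals.
TPCN1 at chr12:113221410-113221435, minus strand: CCCCgctggCCCCgCCCCatttCCCC
SQSTM1 at chr5:179806335-179806352, minus strand: CCCCtCCCaCCCtCCCCC
ULK1 at chr12:131894458-131894546, plus strand: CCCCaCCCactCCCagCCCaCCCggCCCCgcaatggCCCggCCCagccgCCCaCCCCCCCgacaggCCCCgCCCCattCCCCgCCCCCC

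The run of ULK1 holds 14 tracts between -164 and -76, and that of TPCN1 holds 4 tracts between -54 and -29. The TPCN1 run has the same letters as an oligonucleotide that the study tested in vitro by circular dichroism. The study reports i-motif spectra at acidic pH for all sequences it tested in this way, with folding that depended on pH. Members with such a sequence had a median of 6.33 mean counts, as had the 27 without. No fold was measured in these libraries.

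Among the hydrolases, CTSC was the most abundant and 4 of the 13 members had no count. CTSC (ENSG00000109861, chromosome 11 from 88265069 to 88359684, minus strand) encodes cathepsin C, a dipeptidyl peptidase that activates serine proteases. It had 1197, 985 and 1233 counts and 135, 133 and 95.3 TPM in replicates 1 to 3. GLA (ENSG00000102393, chromosome X), the alpha-galactosidase deficient in Fabry disease, had 153, 140 and 167 counts and 51.4, 56.4 and 38.6 TPM. CTSC was above GLA in every replicate, by 2.37 to 2.63 times in TPM and by 7.04 to 7.82 times in counts. Only 0.217% of the counts of GLA lay on coding transcripts, against 98.7% for CTSC, so the ratio is not one of coding transcripts. GAA, the acid alpha-glucosidase deficient in Pompe disease, had 120, 128 and 191 counts and 27.8, 35.1 and 30.1 TPM. Of the counts of GAA, 0% lay on coding transcripts.

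The cysteine protease CTSB had 14.5 ± 1.74 TPM (SD, n = 3) and HEXA, a subunit of beta-hexosaminidase, had 7.41 ± 1.63 TPM. In TPM, GLA, GAA, CTSB, HEXA and CTSL followed each other in this order in every replicate. In counts per 1000000 without division by length, CTSB was above GAA in every replicate, and GLA was above GAA in only 2. CTSA (19, 14 and 15 counts) and CTSZ (6, 10 and 20 counts) were not separated. GUSB, the beta-glucuronidase often used as a reference gene, had 0, 1 and 1 counts, all on GUSB-206, annotated as a retained intron. CTSD, PSAP, NEU1 and TPP1 were listed at 0 in every replicate, and their absence is not shown. The canonical transcript alone held 0% of its last 300 exonic bases for CTSD and NEU1, 1.33% for GUSB and TPP1, and 100% for PSAP. CTSD is the major aspartic protease of lysosomes and PSAP the precursor of the saposins, which help lipid hydrolases.

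The membrane proteins LAMP1 and LAMP2, abundant glycoproteins of the lysosomal membrane, were both in the high category in every replicate. LAMP2 (ENSG00000005893, chromosome X from 120426148 to 120469365, minus strand) had 3138, 2681 and 3793 counts and 218, 217 and 175 TPM. LAMP1 (ENSG00000185896, chromosome 13 from 113297239 to 113323672, plus strand) had 721, 632 and 483 counts and 58.5, 60.7 and 26.5 TPM. LAMP2 was 3.58 to 6.61 times as abundant as LAMP1 in TPM, with the largest ratio in replicate 3, where LAMP1 was low. SCARB2, the receptor that carries beta-glucocerebrosidase to lysosomes, had 5, 1 and 2 counts, and without replicate 1 its mean fell from 0.183 to 0.0597 TPM.

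LAMP2 is made in splice forms that differ in their last exon, and 3′ end libraries can tell forms apart where that end is not shared. In GENCODE v44 this holds for LAMP2-201 and LAMP2-202, and not for LAMP2-203. LAMP2-202, the transcript of LAMP2B, had 2409, 2099 and 3009 counts, which is 78.1% ± 1.29 (SD, n = 3) of the gene's counts. LAMP2-201, the transcript of LAMP2A, the receptor of chaperone-mediated autophagy, had 721, 582 and 783 counts, or 21.8% ± 1.17. LAMP2-203, the transcript of LAMP2C, had 8, 0 and 1 counts. In GENCODE v44 its last 300 exonic bases are shared with another listed transcript. Whether the deposited models share them is not known, so these counts are not read as its level. The order of LAMP2B over LAMP2A held in every replicate and also in TPM, where LAMP2B held 62.4% ± 1.75 of the level. The deposited length of LAMP2-201 is 1867 bases and its length in GENCODE v44 is 6535 bases, so the deposited counts refer to a shorter model of this transcript. The part of this in the ratio of both forms was not tested.

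**Figure D3:**
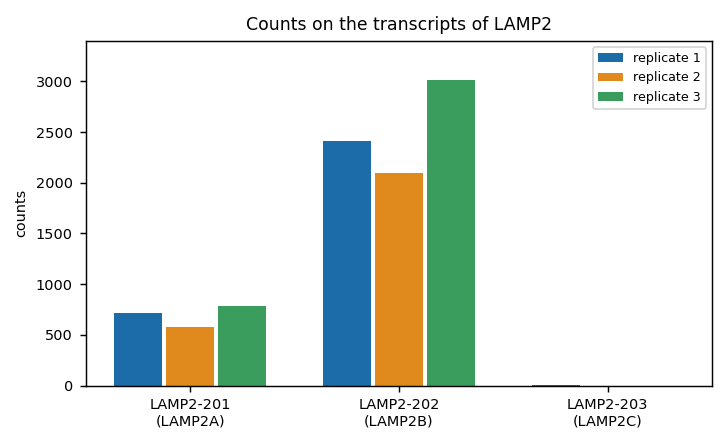
Counts on 3 transcripts of LAMP2 in each replicate (bars from 0). LAMP2-202 (LAMP2B) had between 2099 and 3009 counts, LAMP2-201 (LAMP2A) between 582 and 783, and LAMP2-203 (LAMP2C) at most 8.

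The calcium channels of the endolysosome had few counts. MCOLN1 (mucolipin 1) had 12, 6 and 33 counts and 3.23, 2.03 and 6.41 TPM, and TPCN2, a two-pore channel, had 40, 26 and 25 counts and 4.05, 3.12 and 1.69 TPM. They were not separated, since MCOLN1 was above TPCN2 in 1 replicate. Of the counts of MCOLN1, 94.4% ± 9.62 (SD, n = 3) lay on MCOLN1-205, and of those of TPCN2, 98.7% ± 2.31 lay on TPCN2-204. Both transcripts are annotated as retained introns, and 0% of the counts of either gene lay on coding transcripts. TPCN1 had 0, 0 and 2 counts, which is within what a count of 0 allows.

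Both transcription factors were at or under that limit. TFEB (ENSG00000112561, chromosome 6) had 2, 0 and 1 counts and TFE3 (ENSG00000068323, chromosome X) had 0 in every replicate. Neither was detectable at this depth, and their absence is not shown. In both, the final 300 exonic bases of the canonical transcript are shared throughout with other listed transcripts.

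The V1 sector included the most abundant members and also 3 members at 0. ATP6V1G1 (ENSG00000136888, chromosome 9 from 114587706 to 114598915, plus strand), a subunit of the peripheral stalk, had 9952, 8807 and 10785 counts and 1403, 1470 and 1035 TPM. ATP6V1A (ENSG00000114573, chromosome 3 from 113746770 to 113812056, plus strand), the catalytic subunit, had 6286, 6168 and 5382 counts and 303, 352 and 176 TPM. ATP6V1G1 was above ATP6V1A in every replicate, by 4.18 to 5.87 times in TPM and by 1.43 to 2.00 times in counts. ATP6V1D, a subunit of the central stalk, had 429, 456 and 352 counts and 99.0, 126 and 54.7 TPM. These 3 subunits kept their order in every replicate, both in TPM and without division by length.

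The other subunits of V1 were far lower. ATP6V1B2 had 14, 2 and 22 counts and ATP6V1H had 13, 3 and 21, and the pair was not separated. Both were lowest in replicate 2. ATP6V1C1, ATP6V1E1 and ATP6V1F were listed at 0 in every replicate. The subunits of V1 work in 1 complex, and their counts ranged from 0 to a mean of 9848.

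In the V0 sector, ATP6V0E1 was the highest, with 76, 53 and 66 counts and 15.8, 13.4 and 10.6 TPM. ATP6V0A1, a form of the subunit that helps to form the proton path, had 13, 16 and 16 counts and 2.10, 2.81 and 1.96 TPM. ATP6V0E1 was above ATP6V0A1 in every replicate, by 4.78 to 7.50 times in TPM and by 3.31 to 5.85 times in counts. Of the counts of ATP6V0A1, 82.4% ± 6.55 (SD, n = 3) lay on ATP6V0A1-218, annotated as a retained intron. Only 6.67% of its counts lay on coding transcripts, against 100% for ATP6V0E1, so the ratio is not one of coding transcripts. ATP6V0D1 had 6, 5 and 7 counts, and ATP6V0B and ATP6V0C, which encode subunits of the proteolipid ring, were listed at 0. The median TPM of V1 was 7.27 times that of V0, with an SD of 5.41 over the ratios of the 3 replicates. This ratio rests on few counts and was 1.96 without division by length and 40.6 without members at or under 3 counts. The V1 median lies between ATP6V1H and ATP6V1B2, with 0% and 28.9% of their counts on coding transcripts. The V0 median is that of ATP6V0D1, with 0% on coding transcripts. Of the 5 subunits of V0, 4 have a canonical 3′ end that is shared throughout with other listed transcripts. Of the 8 subunits of V1, 1 has such an end. In V1, the canonical transcripts of ATP6V1F, ATP6V1B2, ATP6V1H and ATP6V1E1 hold only 1% to 11% of their last 300 exonic bases alone. Those of ATP6V1A, ATP6V1D and ATP6V1G1 hold 30.3%, 66.3% and 100%. The accessory proteins had few counts as well, with 7, 9 and 1 for ATP6AP1 and 5, 5 and 9 for ATP6AP2.

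Of the genes that start autophagy, ULK1 and WIPI2 had a mean of at least 1 TPM and the other 4 did not. The absence of these 4 is not shown. The canonical 3′ ends of ATG9A, BECN1 and PIK3C3 are shared throughout with other listed transcripts, and the canonical transcript of ATG13 is not listed. Without division by length, ATG13 was in the low category of expressed genes. ULK1 (ENSG00000177169, chromosome 12 from 131894622 to 131923150, plus strand), the kinase at the head of the pathway, had 1872, 1574 and 2268 counts and 77.6, 77.1 and 63.9 TPM. WIPI2, which reads the lipid signal on the forming membrane, had 302, 301 and 394 counts and 14.97, 18.4 and 13.4 TPM. ULK1 was 4.20 to 5.18 times as abundant as WIPI2 in TPM. ATG13, a partner of ULK1, had 8, 18 and 3 counts, and without replicate 2 its mean fell from 0.607 to 0.371 TPM. BECN1 (5, 3 and 4 counts) and PIK3C3 (2, 2 and 4 counts), members of the lipid kinase complex, were not separated, and ATG9A was listed at 0.

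In the conjugation machinery ATG12, the ubiquitin-like protein joined to ATG5, was the most abundant, with 470, 444 and 607 counts and 35.7, 34.9 and 28.5 TPM. ATG7, the activating enzyme of both conjugation systems, had 25, 30 and 28 counts and 10.8, 16.05 and 8.72 TPM. ATG12 was above ATG7 by 2.18 to 3.30 times in TPM and by 14.8 to 21.7 times in counts. The canonical transcript of ATG7 is not listed, and 97.6% of its counts lay on coding transcripts of 435 to 710 bases. The TPM of ATG7 refers to these short models. ATG5 had 3, 2 and 7 counts and ATG3, the conjugating enzyme for ATG8 proteins, had 10, 7 and 16. ATG5 was above ATG3 in TPM in every replicate and below it without division by length, so their order depends on the scale. ATG16L1 had 1 count in all.

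Of the ATG8 proteins, GABARAP had 38, 30 and 28 counts and 6.35, 6.05 and 3.18 TPM. MAP1LC3B, whose lipidated protein is the usual marker of autophagosomes, had 8, 7 and 4 counts and 2.26, 2.92 and 0.960 TPM. GABARAPL2 was listed at 0. SQSTM1 (p62), the receptor that brings ubiquitinated cargo to these proteins, had 98, 104 and 91 counts and 26.4, 32.8 and 16.5 TPM, and was above GABARAP by 4.15 to 5.42 times in TPM and by 2.58 to 3.47 times in counts. The order SQSTM1, GABARAP, MAP1LC3B held in every replicate. Of the counts of SQSTM1, 0% lay on coding transcripts, against 100% for GABARAP and 89.5% for MAP1LC3B. The place of SQSTM1 in this order and its ratio to GABARAP are therefore not those of coding transcripts.

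Some members have copies elsewhere in the genome, and how reads were assigned among similar sequences was not tested. Of 52 genes named as pseudogene copies of a member by symbol, 43 had no count and 4 had a mean of at least 10 counts. MAP1LC3B2, a protein-coding relative of MAP1LC3B on chromosome 12, had 140, 111 and 104 counts and 37.7, 35.6 and 19.4 TPM. It was above MAP1LC3B by 12.2 to 20.2 times in TPM, and both levels are uncertain where their sequences are alike. ATG12P1 had 20, 97 and 23 counts, GUSBP1 10, 16 and 42, ATP6V1E1P3 11, 22 and 15, and ATP6V1E1P1 15, 20 and 8. ATP6V1E1 itself was listed at 0, below both of these copies.

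The counts of the members moved with how much of their 3′ end belongs to a single listed transcript. The canonical transcripts of ATG7 and ATG13 are not listed. Of the 49 members whose canonical transcript is listed, 24 share all of its last 300 exonic bases with other listed transcripts on the same strand, against 40.5% of protein-coding genes. These 24 had a median of 3.33 mean counts, and 11 of them (45.8%) had at most 3 counts in every replicate, compared with 62.8% of protein-coding genes of this class. The 11 members whose last 300 bases lie in the canonical transcript alone had a median of 240 mean counts, and 1 of them, PSAP, was at or under 3 counts, compared with 36.8% of protein-coding genes of this class. For protein-coding genes the same classes had medians of 0.333 and 23.8 counts. CTSC departed from this with 1138 mean counts and a 3′ end that is shared throughout, and PSAP with a 3′ end of its own and no count. Between these classes, 10 members held above 0 and under 30% of the end alone and had a median of 7.5 mean counts. Of these 10, GUSB, TPP1, ATP6V1E1 and ATP6V1F (40%) had at most 3 counts in every replicate, compared with 59.5% of protein-coding genes of this class. The 4 members at 30% to under 100% had a median of 512 mean counts. Among the 34 members whose listed transcripts all have their deposited length in GENCODE v44, the medians were 0.333 counts for 15 members with a shared end and 215 for 8 with an end of their own. The part of this in the low counts of single members was not tested.

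**Figure D4:**
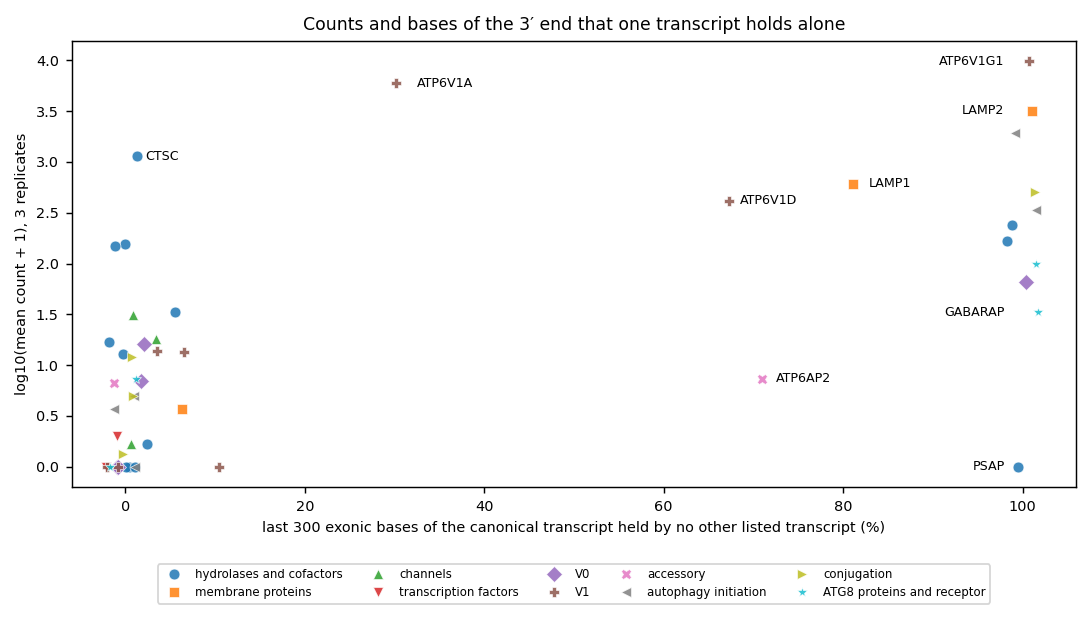
Share of the canonical transcript's last 300 exonic bases that no other listed transcript holds (x, percent, with points spread sideways by up to 2.2 for visibility) against the mean count over 3 replicates (y, log10 of count + 1), for 49 members, with symbols by role. Members at 100% had a median of 240 counts and those at 0% a median of 3.33, and CTSC and PSAP depart from this.

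The transcript that carried most of a member's counts was often not the canonical one. Of the 39 members with a count, 14 were led by the canonical transcript, against 51% of the protein-coding genes with a count. Another 14 were led by a transcript annotated as a retained intron, against 16.1% of these protein-coding genes. The 14 members led by their canonical transcript held 84.9% of the members' counts, with all of their transcripts included. Among the 15 members with a mean of at least 50 counts, 11 were led by their canonical transcript. ATP6V1A, ATP6V1G1, ULK1, WIPI2 and LAMP1 had a mean of over 98% of their counts on the canonical transcript.

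For 3 of the 15, the counts lay mostly outside the transcripts that encode the protein. GAA had all of its counts on GAA-208, a transcript annotated without a coding sequence, which ends 17148 bases from the canonical end. GLA had 82.1% ± 2.75 (SD, n = 3) of its counts on GLA-203, annotated as a retained intron, and SQSTM1 92.5% ± 7.87 on SQSTM1-206, of the same kind. The levels given for these 3 genes are therefore mostly those of transcripts that do not encode the protein. ATP6V1D was split between ATP6V1D-201 (51.1% ± 0.808) and ATP6V1D-202 (40.8% ± 2.22), both coding. The exons of other genes on either strand covered none of the last 300 exonic bases of the leading transcripts of these 15 members. Of the other members with a count, all 300 bases were covered on the opposite strand for CTSA by PLTP and for BECN1 by CNTD1, both listed at 0, so the counts of this pair of members could belong to either strand. The leading transcript of TPCN2 shared 14 of these bases on its own strand with ENSG00000287725, which had 18.3 mean counts. The polyadenylation signal AATAAA lay in the last 40 bases of 10 of the 14 canonical leading transcripts, compared with 62.8% of canonical protein-coding transcripts. It lay there in 2 of the 14 leading retained introns, compared with 15.7% of 28073 listed retained introns of protein-coding genes.

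The replicates were compared for the 15 members with a mean of at least 50 counts. The SD of log2(TPM + 1) had a median of 0.270 for them and of 0.339 for 5053 protein-coding genes at such counts, and with mitochondrial genes left out it was 0.178 and 0.192. Across the 51 members, of which 12 had no count in any replicate, log2(TPM + 1) gave Pearson coefficients between 0.982 and 0.992 for the 3 pairs of replicates. Across the expressed genes the coefficients were lower, between 0.931 and 0.951. These are coefficients across genes, which are not independent replicates. The median coefficient of variation of the 15 members was 14.6%, and counting noise alone would give 4.92%. For the protein-coding genes at such counts these values were 13.4% and 5.22%.

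With mitochondrial genes left out, no replicate of these 15 members lay more than 0.5 on the log2 scale from the member's mean. LAMP1 in replicate 3 was the lowest, at -0.45, and GAA in replicate 3 the highest, at 0.30. LAMP1, ATP6V1A, ATP6V1D and SQSTM1 were lowest in replicate 3, and 9 other members were highest there. Of 5040 nuclear protein-coding genes at such counts, 43.4% were lowest and 40.7% highest in replicate 3.

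**Figure D5:**
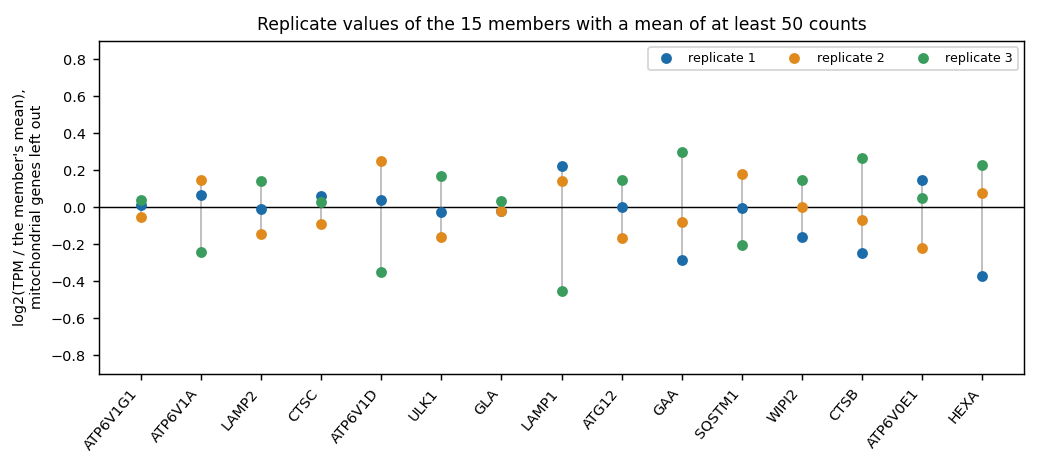
Level of the 15 members with a mean of at least 50 counts in each replicate, as log2 of the TPM over the member's own mean with mitochondrial genes left out. Points are replicates and grey lines join the lowest and the highest. All values lie within 0.5 of the mean, and LAMP1 in replicate 3 is the lowest at -0.45.

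A wider list of 96 lysosome, V-ATPase and autophagy genes that are no members was described in the same way. Of these genes, 52 were expressed (54.2%, against 38.2% of protein-coding genes) and 14 were in the high category (14.6%, against 12.5%). No count was found for 19 (19.8%, against 36.5%), and the median was 1.54 TPM. Among 54 further lysosomal genes, RRAGA, a GTPase that recruits mTORC1 to the lysosome, was the highest with 617, 636 and 404 TPM, followed by GM2A, the activator of ganglioside hydrolysis, with 130, 141 and 93.0 TPM. Of 11 further V-ATPase genes, which are 10 paralogs of the subunits and RNASEK, a protein associated with the pump, 3 were expressed, and 2 of these were paralogs, namely ATP6V1E2 with 31.2, 45.9 and 41.4 TPM and ATP6V0A2 with 33.8, 32.9 and 24.7 TPM. ATP6V0A2 was above its paralog ATP6V0A1, and ATP6V1E2 above ATP6V1E1, in every replicate. The canonical transcript alone held 100% of its last 300 exonic bases for ATP6V0A2 and 0% for ATP6V0A1. It held 0% for ATP6V1E2 and 11% for ATP6V1E1. Of the counts of ATP6V0A1, 82.4% lay on a retained intron. The part of these differences in the 2 orders was not tested. Among 31 further autophagy genes, the cargo receptor CALCOCO2 had the highest mean, with 153, 161 and 117 TPM, and ATG16L2, led by a transcript without a coding sequence, had the next highest mean with 28.8, 29.5 and 32.01 TPM. ATG16L2 was not separated from ULK2, which had 36.3, 22.6 and 17.9 TPM and more counts in every replicate.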

How the data were processed

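RNA-seq of HEK293T was measured in 3 replicates of 1 condition. The sources used here name Trimmomatic 0.38.0, HISAT2 2.2.1, featureCounts and the hg38 build. The annotation release and the setting for reads that overlap several transcripts are not given in the sources used here. The authors deposited raw counts, whole numbers of reads on each transcript. They also deposited TPM, obtained as the count over the transcript length with each library scaled to 1000000, and recomputing these values from the counts gave the same numbers. The libraries are QuantSeq 3′ mRNA-seq, so that after division by length a long transcript has fewer TPM for the same reads. The labels give the material as genomic DNA and their protocol as RNA. The methods of the study call the replicates independent and biological, and SDs are over the 3 of them. Depth is the sum of reads counted on transcripts, not of all reads sequenced, and whether counting used the strand is not given in the sources used here.

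Of 247541 transcripts, 223558 matched GENCODE v44 by identifier without version. Counts and TPM were summed per gene and averaged over replicates. For 92 of the 653 listed transcripts of the members, the deposited length differs from that in GENCODE v44, so the 3′ ends described are approximate. Neighbours in an order were called separated only where one was higher in every replicate, since the smallest p of an exact paired test is 0.25 with 3 replicates. Levels with the replicate values are given for the 2 highest and the 2 lowest members of each role and for members fixed by name, and other members by range or mean. The members and lists were chosen with earlier results of these data known. Scripts were tested on simulated data. Python 3.11.15, numpy 2.4.6 and pandas 2.3.3 were used. Alternatives were other thresholds, no division by length, mitochondrial genes left out, other 3′ windows, other motif rules and leaving out each replicate.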

Additional observations from a re-analysis of the deposited data

How the results depend on the processing

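No paired analysis was possible because only 1 group was sequenced. Expressed members were 15, and high ones 5, with a mean TPM of at least 10. Leaving out single replicates gave 26 to 27 expressed members, 10 to 11 high ones and 16 to 18 at or under 3 counts. The median TPM of the members was 2.26 with mitochondrial genes left out, 1.74 by the median of the replicates, 24.3 for members led by their canonical transcript alone (added after seeing the data), and 1.31 to 1.87 without single replicates. The share of all TPM was 0.348% without division by length, 0.325% with mitochondrial genes left out, and 0.218% to 0.262% without single replicates. The ratio of V1 to V0 was 40.6 without members at or under 3 counts and 5.16 to 10.3 without single replicates. The median SD of log2(TPM + 1) was 0.178 with mitochondrial genes left out and 0.152 to 0.302 without single replicates. The share of LAMP2-202 was 77.5% to 78.8% without single replicates. Members with a shared 3′ end were 15 among the 34 with unchanged transcript lengths (added after seeing the data, with fewer genes tested). The longer palindrome was in 3 members, and 4 tracts of at least 2 Cs were in all 42. The cause was not tested for the other changes. Leaving out 1 replicate moved the mean TPM of 7 of the 39 members with a count by over 1.5 times or to 0, and none of these had a mean of at least 50 counts. Besides SCARB2 and ATG13 they were GUSB (0.153 TPM without replicate 2), TFEB (0.0289 without replicate 1), ATP6AP1 (0.187 without replicate 2), TPCN1 (0 without replicate 3) and ATG16L1 (0 without replicate 1). For members under 50 counts, depth limits what can be said of order and category.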
